A study of Mus musculus with 12 samples.

Results

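Complement is a set of secreted proteins, receptors and regulators that mark microbes and dying cells for uptake and recruit leukocytes. C1q, the recognition unit of the classical pathway, is assembled from chains encoded by C1qa, C1qb and C1qc. C3 is the component on which all activation routes converge, factor B (Cfb) and properdin (Cfp) build and stabilize the convertase of the alternative pathway, and the C1 inhibitor (Serping1) restrains the classical pathway. C3ar1 and C5ar1 encode the receptors of the released peptides C3a and C5a. Macrophages are a known local source of C1q, C3, factor B and properdin, apart from the plasma proteins made by the liver.

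The mRNA levels of these 9 genes, chosen by symbol and all found in the table of 12850 genes, were examined in thioglycollate-elicited peritoneal exudate cells (PECs), the leukocytes that enter the mouse peritoneal cavity after an irritant is injected. C57BL/6 WT mice were compared with Zc3h12a S513A/S513A (S513A) knock-in mice, in which the S513A substitution puts alanine in place of a serine of the RNase Regnase-1, a change that gene-level values cannot check. PECs of both genotypes were collected 3.5 days after the injection, cultured, and stimulated with 100 ng/ml LPS, a bacterial cell wall component, for 0, 4 or 8 hr. Each of the 6 groups had 2 libraries of polyA RNA, 12 in all. The knock-in is present in every cell of the mouse, ages and sexes were not used here, and the labels do not state that replicate libraries came from separate mice, so p values measure only the spread between these libraries.

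Libraries held 9525979 to 12439960 reads on the listed genes. Of the 9 complement genes, 8 passed the filter of at least 1 CPM (reads scaled to the size of the library) in at least 2 libraries and were tested among 11885 genes. Serping1 did not pass. All 10 macrophage markers examined were tested, with a summed level of 17470 to 28670 CPM per library. Neutrophil markers were listed for 2 of 10 (S100a8 and Camp, together 20.3 to 108 CPM), B cell markers for 6 of 8 (10.6 to 26.8 CPM), T cell markers for 2 of 8 (1.12 to 2.64 CPM) and eosinophil markers for 2 of 6 (3.62 to 18.5 CPM). Mast cell markers were listed for 5 of 7 (4.01 to 9.70 CPM) and mesothelial cell and fibroblast markers for 10 of 11 (21.8 to 84.8 CPM), where Msln, a defining mesothelial gene, had 0 to 11 reads. In such bulk libraries, fewer cells of a type and less RNA per cell cannot be told apart.

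Between 0 hr and the later times with LPS, the complement genes moved in opposite directions. No libraries came from cells cultured for 4 or 8 hr without LPS. LPS and time in culture therefore cannot be told apart in any of the changes over time given here. The mRNAs of C3 and factor B rose 3.53-fold and 4.38-fold by 8 hr in the mean of both genotypes, while the C1q chains fell to between 0.321 and 0.430 of their 0 hr level and the C3a receptor fell to 0.605. C5ar1 rose at 4 hr and was back near its 0 hr level at 8 hr. At 4 hr against 0 hr, 3 members were higher and 4 lower at an adjusted p below 0.05, beside 29.1% of all genes tested called higher and 26.7% called lower. At 8 hr against 0 hr, 2 were higher and 5 lower, beside 24.5% and 21.6% of all genes. From 4 to 8 hr, 2 rose and 4 fell, where 12.8% of the table was called in each direction. For the 8 complement genes the middle log2 change was -0.38 at 4 hr and -0.66 at 8 hr, against 0.02 and -0.0007 over all genes. These contrasts share libraries, since both times were set against the same 0 hr libraries.

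**Figure D1:**
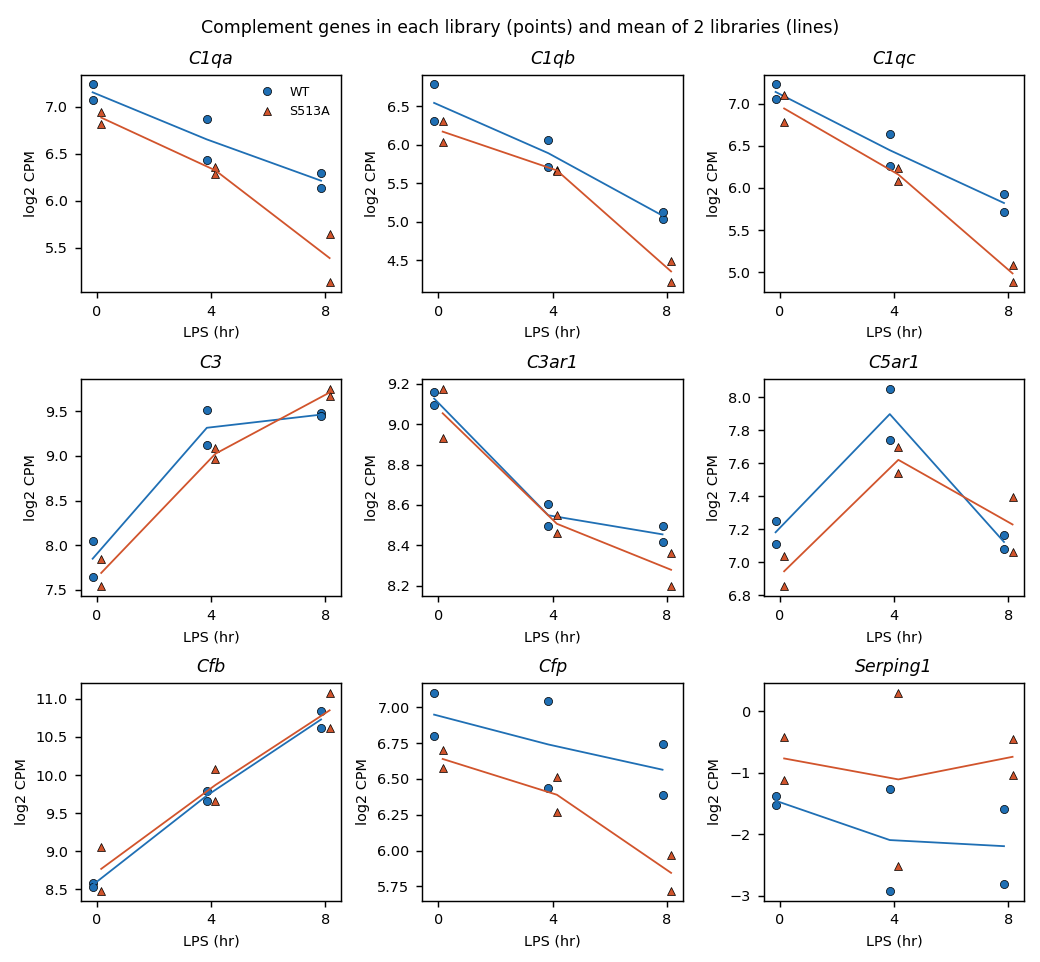
Level of each of the 9 complement genes in log2 CPM (vertical axis, its own range in each panel) at 0, 4 and 8 hr of LPS (horizontal axis), with a point for each library and a line through the mean of the 2 libraries of a group. C3 and Cfb climb, the C1q genes and C3ar1 decline, C5ar1 peaks at 4 hr, and Serping1 stays at 1 to 12 reads per library.

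The genes of the C1q chains lie side by side on the minus strand of chromosome 4 (GRCm38, the assembly of mm10), within 18675 bases. C1qb (Entrez 12260) spans chr4:136880129-136886187, C1qc (Entrez 12262) spans chr4:136889804-136893065 and C1qa (Entrez 12259) spans chr4:136895917-136898803, with gaps of 3616 and 2851 bases. Each has 3 exon blocks in GENCODE. Promoter windows of 300 bases (250 before to 50 after the start, RefSeq, GRCm38.p6, minus strand) are shown for C1qb at chr4:136886151-136886450 and C1qc at chr4:136892865-136893164, because these neighbours fell together. Capitals mark the letters that matched a searched motif.
C1qb: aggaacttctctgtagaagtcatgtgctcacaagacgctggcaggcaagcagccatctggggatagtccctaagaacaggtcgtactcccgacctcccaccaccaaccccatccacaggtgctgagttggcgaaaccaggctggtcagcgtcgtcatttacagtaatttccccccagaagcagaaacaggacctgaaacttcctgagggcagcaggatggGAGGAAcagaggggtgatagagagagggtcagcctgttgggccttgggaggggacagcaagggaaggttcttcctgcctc
C1qc: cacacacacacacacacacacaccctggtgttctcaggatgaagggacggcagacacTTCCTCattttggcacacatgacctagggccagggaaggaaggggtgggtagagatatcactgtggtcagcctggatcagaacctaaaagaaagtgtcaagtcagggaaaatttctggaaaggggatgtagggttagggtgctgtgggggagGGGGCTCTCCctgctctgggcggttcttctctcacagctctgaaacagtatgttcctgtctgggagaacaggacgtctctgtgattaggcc
Both strands were searched for the kappaB motif (by name), the interferon-stimulated response element GAAANNGAA, the gamma-activated site TTCNNNGAA and the core of the macrophage factor PU.1, GAGGAA. The C1qb window held the PU.1 core once, at position -30. In the C1qc window, the capitals GGGGCTCTCC matched kappaB at position -41 from the start, and TTCCTC matched the PU.1 core on the other strand at position -193. The share of 32851 RefSeq promoter windows with a match was 8.46% for kappaB, 8.56% for the response element, 8.30% for the gamma-activated site and 28.3% for the PU.1 core. Of the 6 members with a window, 1 matched kappaB, 1 the response element, 0 the gamma-activated site and 3 the PU.1 core.

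C1qa, the A chain of C1q, was at 151 and 134 CPM in the WT libraries at 0 hr, 117 and 86.2 CPM at 4 hr, and 70.1 and 78.4 CPM at 8 hr. The S513A libraries held 123.5 and 113 CPM, then 77.7 and 82.3 CPM, then 35.1 and 50.1 CPM. Within each genotype the libraries of the 3 times did not overlap. In the mean of the genotypes the log2 level of C1qa fell by 0.53 at 4 hr (SE 0.13, limma adjusted p = 0.00469, n = 4 libraries per time) and by 1.22 at 8 hr (SE 0.13, adjusted p = 1.85e-05). The step from 4 to 8 hr was -0.69 (adjusted p = 0.00305).

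C1qb, the B chain, started at 110.0 and 78.9 CPM in WT, passed through 67.0 and 52.4 CPM, and reached 32.8 and 34.9 CPM. In S513A it went from 79.0 and 65.6 CPM through 50.8 and 50.7 CPM to 18.6 and 22.6 CPM. Every 8 hr library was below every 4 hr library. The log2 change was -0.58 at 4 hr (SE 0.13, limma adjusted p = 0.00272) and -1.64 at 8 hr (SE 0.13, adjusted p = 1.53e-06), and the decline from 4 to 8 hr was 1.06 in size (adjusted p = 0.000213).

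C1qc, the C chain, went in WT from 150.0 and 133 CPM to 99.6 and 76.5 CPM and then to 52.7 and 60.7 CPM. In S513A it went from 137 and 110.5 CPM to 75.3 and 67.8 CPM and then to 29.5 and 34.1 CPM. The 4 libraries of each time were separate from those of the others. C1qc fell by 0.74 at 4 hr (SE 0.11, limma adjusted p = 0.000234) and by 1.64 at 8 hr (SE 0.11, adjusted p = 5.78e-07) on the log2 scale, with 0.90 of that decline after 4 hr (adjusted p = 0.000283).

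The chains kept a similar but not fixed proportion within libraries. The log2 CPM of C1qc exceeded that of C1qb by 0.42 to 0.80 in the 12 libraries. The difference of C1qa from C1qc was 0.01 ± 0.01 (SD, n = 2) in WT at 0 hr, 0.20 ± 0.04 at 4 hr and 0.39 ± 0.03 at 8 hr. In S513A it was -0.06 ± 0.13, 0.16 ± 0.17 and 0.40 ± 0.22. C1qa thus declined less than C1qc between 0 and 8 hr in both genotypes, with no overlap between the 0 hr and 8 hr libraries in this difference. These are differences of log2 CPM within a library, in which depth cancels.

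C3 (Entrez 12266, chr17:57203970-57228136, minus strand, 42 exon blocks) encodes the central component. WT libraries held 265 and 200.2 CPM at 0 hr, 557 and 729.7 CPM at 4 hr, and 714 and 698 CPM at 8 hr. In S513A the values were 186 and 229 CPM, 544 and 498.5 CPM, and 864 and 814 CPM. Every stimulated library was above every 0 hr library. C3 rose by 1.40 on the log2 scale at 4 hr (SE 0.12, limma adjusted p = 2.44e-06) and by 1.82 at 8 hr (SE 0.12, adjusted p = 3.88e-07). The further step from 4 to 8 hr was 0.42 (adjusted p = 0.0261) and missed the threshold when either WT 8 hr library, WT 4 hr replicate 1, S513A 4 hr replicate 2 or S513A 8 hr replicate 1 was left out (adjusted p 0.0642 to 0.0827). By genotype that step was 0.15 in WT (adjusted p = 0.597) and 0.69 in S513A (adjusted p = 0.02). The difference between these steps was not tested. The promoter window of C3 (RefSeq, GRCm38.p6, chr17:57228087-57228386, minus strand), shown because C3 rose early, had no match to the searched motifs and is therefore all in lower case.
C3: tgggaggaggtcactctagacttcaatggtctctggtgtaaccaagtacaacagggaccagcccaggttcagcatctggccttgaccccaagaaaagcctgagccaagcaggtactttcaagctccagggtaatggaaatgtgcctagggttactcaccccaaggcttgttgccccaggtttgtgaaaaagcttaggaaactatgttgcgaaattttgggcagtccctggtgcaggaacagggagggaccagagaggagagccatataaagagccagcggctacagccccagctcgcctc

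Factor B, the serine protease of the alternative pathway convertase, had the largest rise among the members at 8 hr. Cfb was at 385 and 368 CPM in WT at 0 hr, 889 and 811 CPM at 4 hr, and 1574 and 1837 CPM at 8 hr. S513A libraries held 357 and 531 CPM, 808 and 1080.0 CPM, and 1578 and 2166 CPM. No library of one time overlapped with those of another. The log2 change was 1.14 at 4 hr (SE 0.15, limma adjusted p = 8.36e-05), 2.13 at 8 hr (SE 0.15, adjusted p = 7.42e-07) and 0.99 from 4 to 8 hr (adjusted p = 0.000922). Of the exon bases of Cfb (Entrez 14962, chr17:34856374-34862518, minus strand), 79.5% are also annotated to the readthrough gene Gm20547 on the same strand, so its count depends on how the authors' counting treated shared bases.

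Properdin, the stabilizer of that convertase, went the other way. Cfp (Entrez 18636, chrX:20925454-20931555) was at 137 and 111 CPM in WT at 0 hr, 132 and 86.5 CPM at 4 hr, and 107 and 83.7 CPM at 8 hr. The S513A values were 104 and 95.3 CPM, 77.0 and 91.3 CPM, and 52.7 and 62.6 CPM. The WT libraries at 4 hr overlapped with those of both other times, both WT libraries at 8 hr were below both at 0 hr, and both S513A libraries at 8 hr were below all others. In the mean of the genotypes Cfp fell by 0.59 at 8 hr (SE 0.14, limma adjusted p = 0.00654) on the log2 scale. At 4 hr the change was -0.23 (95% CI -0.55 to 0.09, adjusted p = 0.205), which passed the threshold after quantile normalization (-0.49, adjusted p = 0.0152) and without WT 4 hr replicate 1 (-0.38, adjusted p = 0.0231). The step from 4 to 8 hr, -0.36 (adjusted p = 0.0957), passed without WT 4 hr replicate 2 (-0.51, adjusted p = 0.012). The Cfp promoter window matched the PU.1 core at 2 places just after the start.

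The anaphylatoxin receptors followed different courses. C3ar1 (Entrez 12267, chr6:122847138-122856161), the C3a receptor, was at 546 and 573 CPM in WT at 0 hr, 389 and 360.2 CPM at 4 hr, and 341 and 360.3 CPM at 8 hr. In S513A it was at 579 and 488.5 CPM, 375 and 352.5 CPM, and 329 and 293 CPM. All 0 hr libraries were above all stimulated ones. The fall was 0.56 at 4 hr (SE 0.08, limma adjusted p = 0.000155) and 0.72 at 8 hr (SE 0.08, adjusted p = 3.07e-05) on the log2 scale. Between 4 and 8 hr the change was -0.16 (95% CI -0.34 to 0.02, adjusted p = 0.183).

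C5ar1 (Entrez 12273, chr7:16246743-16259540), the C5a receptor, was at 152 and 138.5 CPM in WT at 0 hr, 214 and 266 CPM at 4 hr, and 135 and 143.5 CPM at 8 hr. S513A libraries held 131 and 116 CPM, 208 and 186 CPM, and 168 and 134 CPM. The 4 libraries at 4 hr were above all others. C5ar1 rose by 0.70 at 4 hr (SE 0.10, limma adjusted p = 0.000172) and fell by 0.58 from 4 to 8 hr (SE 0.10, adjusted p = 0.0021) on the log2 scale. At 8 hr against 0 hr the difference was 0.11 (95% CI -0.11 to 0.34, adjusted p = 0.403). Its promoter window held the response element on the opposite strand at position -66.

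Quantile normalization lowered all 8 log2 changes at 4 hr by 0.21 to 0.44 and at 8 hr by 0.15 to 0.34, while the median over all genes stayed within 0.1 of 0. Under it C5ar1 rose by 0.34 at 4 hr (limma adjusted p = 0.027), Cfb rose by 0.69 (adjusted p = 0.00203), C1qa fell by 0.82 (adjusted p = 0.000174), C3ar1 fell by 0.96 (adjusted p = 3.27e-06), and the C5ar1 difference at 8 hr was -0.14 (adjusted p = 0.346). The other scaling tried, by median ratios, left every call in the mean of the genotypes as it was.

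**Figure D2:**
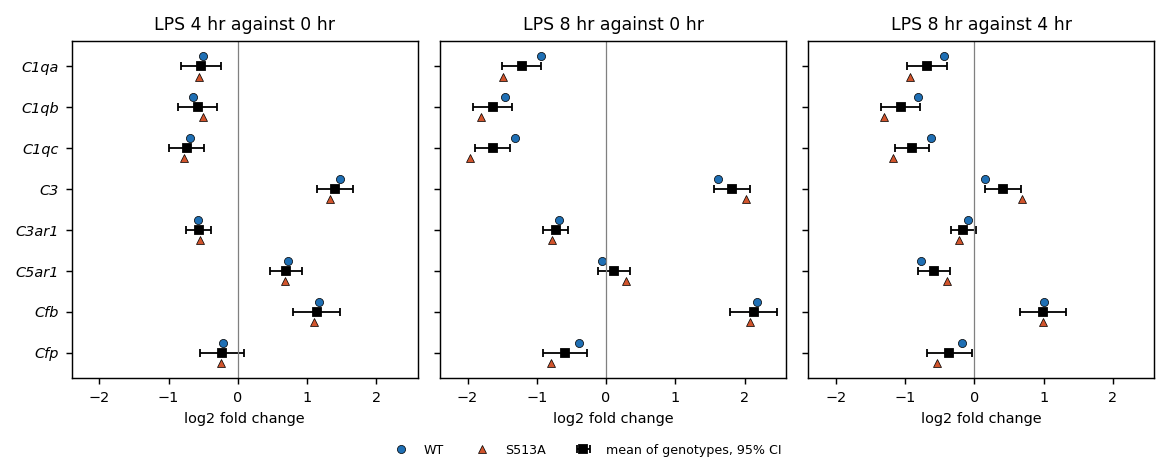
Log2 fold change (horizontal axes) of the 8 tested complement genes between LPS times, as the mean of both genotypes with its 95% confidence interval (squares) and in WT (circles) and S513A (triangles) alone. C3 and Cfb lie to the right of 0 and the C1q genes to the left at both 4 and 8 hr against 0 hr, and C5ar1 turns from a rise by 4 hr (0.70) to a fall from 4 to 8 hr (-0.58).

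Serping1 (Entrez 12258, chr2:84765387-84775444), the C1 inhibitor, was close to the floor. WT libraries held 5 and 4 reads before LPS, 1 and 4 reads at 4 hr, and 3 and 1 reads at 8 hr. S513A libraries held 8 and 5, 12 and 1, and 8 and 4 reads. A single library reached 1 CPM, the sum was 18 reads over WT and 38 over S513A, and no test was made. At this depth 3 reads correspond to a log2 CPM of -2.04 to -1.30, so changes of Serping1 were not detectable, and this floor covers counting error only.

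Levels of different genes were compared as CPM per kb of exon, where the length is that of all annotated exons of a gene together. The transcripts present may be shorter, so the order depends in part on the annotation. The length was 1040 bases for C1qa and 1931 for C1qc. At 0 hr the order by mean of 4 libraries was Cfb (145), C3ar1 (127), C1qa (125), C1qb (76.6), C1qc (68.6), Cfp (64.5), C5ar1 (52.3), C3 (42.8) and Serping1 (0.208). The ranges of Cfb, C3ar1 and C1qa overlapped with each other, as did those of C1qb, C1qc and Cfp, while C5ar1 overlapped with C1qc and Cfp above it and with C3 below it. At 4 hr Cfb (317.5) was separate from the rest, followed by C3 (113), C1qa (87.4), C3ar1 (85.8), C5ar1 (85.0), Cfp (55.7), C1qb (50.8) and C1qc (41.3). Of these neighbours, C3 and C1qa, the group of C1qa, C3ar1 and C5ar1, C5ar1 and Cfp, Cfp and C1qb, and C1qb and C1qc overlapped. At 8 hr the order was Cfb (633), C3 (150.2), C3ar1 (76.9), C5ar1 (56.5), C1qa (56.2), Cfp (44.1), C1qb (25.01) and C1qc (22.9). Cfb and C3 were then separate from each other and from the rest, C1qa overlapped with C3ar1, C5ar1 and Cfp, and Cfp, C1qb and C1qc overlapped with each other. C3 thus moved from the eighth place among the members to the second.

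**Figure D3:**
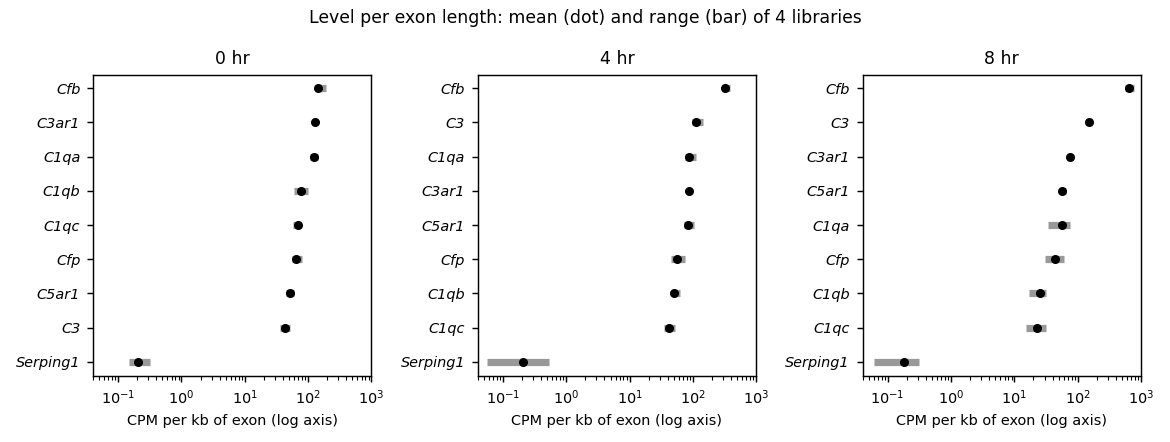
CPM per kb of exon (horizontal axes, logarithmic) of the 9 complement genes at 0, 4 and 8 hr, ordered by the mean of the 4 libraries of both genotypes (dots), with the range of the libraries as a bar. Cfb is first at each time, C3 moves from 42.8 to 150.2, and Serping1 lies near 0.2 throughout.

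Within each genotype, tested in the same limma fit of all 12 libraries, the courses went the same way in the called genes. The spread used was thus shared by both genotypes. At 4 hr against 0 hr, 7 members were called in WT and 7 in S513A, beside 41.3% and 43.2% of all genes in either direction. The calls of C1qa and C1qb at 4 hr in S513A were lost in each of the 4 fits without 1 S513A library at 0 or 4 hr, with limma adjusted p from 0.0718 to 0.147 and from 0.0567 to 0.254. In WT, C1qa was lost in 3 of 4 such fits and C1qb in 2 of 4. C5ar1 no longer passed at 4 hr after quantile normalization in WT (adjusted p = 0.118) or S513A (adjusted p = 0.127). At 8 hr against 0 hr, 6 were called in WT and 7 in S513A, beside 34.3% and 39.9%. The call that differed was Cfp, at -0.38 in WT (limma adjusted p = 0.173) and -0.79 in S513A (adjusted p = 0.0109). The S513A call was lost without S513A 0 hr replicate 1 (adjusted p = 0.0749) or S513A 8 hr replicate 1 (adjusted p = 0.0716). In WT Cfp passed after quantile normalization (-0.63, adjusted p = 0.0378) and in a limma fit of only the libraries compared (adjusted p = 0.0388). With only the libraries compared, the WT calls of C1qa and C1qb at 4 hr were lost (limma adjusted p = 0.0916 and 0.0537). From 4 to 8 hr, 4 were called in WT and 5 in S513A, beside 14.2% and 18.3%. Without WT 8 hr replicate 1 the WT count of 4 became 0, without WT 8 hr replicate 2 it became 1, and the S513A count of 5 became 3 without S513A 4 hr replicate 2 or 8 hr replicate 1. The WT count at 4 hr became 4 without WT 0 hr replicate 1. A call in one genotype and not in the other does not show a difference between them, which is what an interaction term tests.

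The comparison of S513A with WT asked whether the knock-in, which bears on the stability and RNA binding of Regnase-1, changed these mRNAs. At no single time, and not in the average over times, did any of the 8 complement genes pass the threshold in limma, and with voom weights the count was also 0. Among all genes tested, 0.0337% were called at 0 hr, 0.0168% in cells stimulated for 4 hr, 0.0337% after 8 hr and 0.0673% when the times were averaged. An unadjusted p below 0.05 was reached by 0 members before stimulation, 0 after 4 hr, 4 after 8 hr and 4 in the average, beside 7.98%, 7.01%, 12.5% and 6.71% of all genes.

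The genes behind these counts were the C1q chains and properdin. At 8 hr the S513A minus WT difference in log2 CPM was -0.82 for C1qa (95% CI -1.23 to -0.42), -0.72 for C1qb (-1.12 to -0.32), -0.84 for C1qc (-1.19 to -0.48) and -0.72 for Cfp (-1.17 to -0.27), each with a limma adjusted p of 0.395. Both S513A libraries were below both WT libraries at 8 hr in each of these genes and in C3ar1, 5 of 8 members, an arrangement found in 25.8% of all genes tested. C1qa had it at 0, 4 and 8 hr, 1 of 8 members, against 0.597% of all genes. Averaged over the times the differences were -0.47 for C1qa (adjusted p = 0.291), -0.44 for C1qb (adjusted p = 0.356), -0.44 for C1qc (adjusted p = 0.25) and -0.46 for Cfp (adjusted p = 0.404).

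The other members differed less. At 8 hr C3 was at 0.25 (95% CI -0.12 to 0.62, limma adjusted p = 0.481), C3ar1 at -0.18 (-0.43 to 0.08), C5ar1 at 0.11 (-0.22 to 0.43) and Cfb at 0.12 (-0.35 to 0.60). The S513A libraries of C3 were below both WT libraries at 4 hr and above both at 8 hr. Those of C5ar1 were below WT at 0 and 4 hr and overlapped with it at 8 hr, and those of Cfb overlapped with WT at each time.

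**Figure D4:**
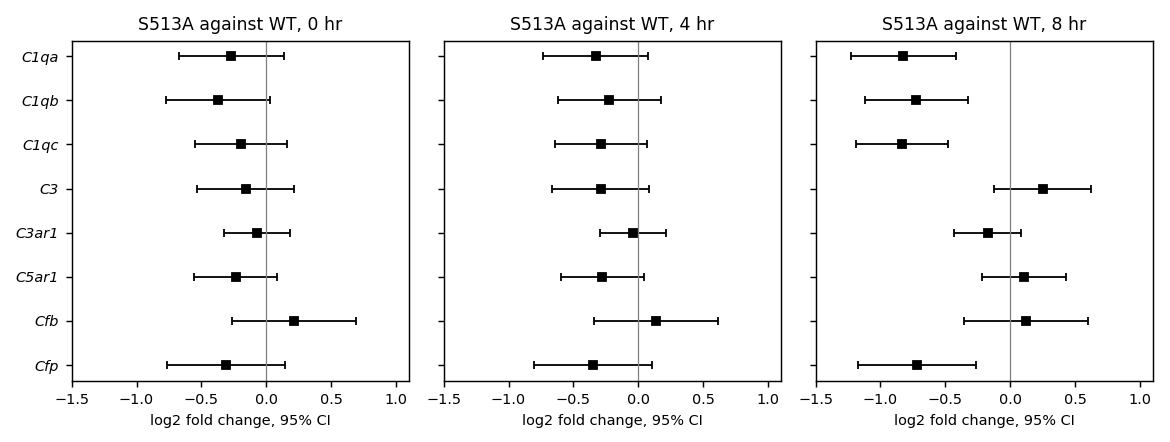
Log2 fold change of S513A against WT (horizontal axes) for the 8 tested complement genes at 0, 4 and 8 hr, with 95% confidence intervals from the limma model of all 12 libraries. The intervals of C1qa, C1qb, C1qc and Cfp lie below 0 at 8 hr before adjustment over all genes, and all the others include 0.

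The genotype by LPS interaction, the difference between the LPS responses of S513A and WT, was called in 0 members at 4 hr and 0 at 8 hr, and in 0% of all genes at either time. With voom weights it was 0 as well, and at an unadjusted p below 0.05 it was 0 members at 4 hr and 1 at 8 hr, beside 1.21% and 20.2% of all genes. The member was C1qc at 8 hr, with an interaction of -0.64 (95% CI -1.14 to -0.14, limma adjusted p = 0.199), where the smallest adjusted p over all genes was 0.193. For C1qa it was -0.55 (-1.12 to 0.02, adjusted p = 0.252), for C1qb -0.35 (-0.91 to 0.21) and for C3 0.41 (-0.12 to 0.94). The differences at 8 hr and this interaction share the same 8 hr libraries.

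Of 9 markers of resident peritoneal macrophages 8 were tested, and 1 was called between genotypes at 8 hr, with a median difference of -0.38 on the log2 scale. Their summed level was 257 to 306 CPM in WT and 217 to 272.5 CPM in S513A at 8 hr. Cxcl13, a B cell chemoattractant of body cavity macrophages, was called lower in S513A at 8 hr (-2.56, limma adjusted p = 0.0119) and in the mean of the times (-1.86, adjusted p = 0.00129). Timd4, a receptor for dying cells, was at -0.88 and Vsig4, a receptor for C3 fragments, at -0.75 at 8 hr, each with an adjusted p of 0.395. Gata6, a transcription factor of these cells, was at -0.05 (adjusted p = 0.967), Selp at 0.08 (adjusted p = 0.939) and Prg4 at 0.20 (adjusted p = 0.764). Under LPS the list moved in both directions at 8 hr in the mean of the genotypes, where 2 of the 8 rose, 3 fell and 3 were not called. Timd4 rose by 1.45 (limma adjusted p = 5.13e-05) and Prg4 by 0.93 (adjusted p = 0.00623). Vsig4 fell by 0.90 (limma adjusted p = 0.000741). From 0 to 8 hr the mean log2 CPM of Gata6 went from 1.83 to 0.06 in WT and from 1.39 to 0.01 in S513A. That of Selp went from 1.54 to -1.65 in WT and from 0.22 to -1.56 in S513A. Gata6 had 6 to 66 reads per library and Selp 2 to 45. Of the 10 general macrophage markers 0 were called between genotypes at 8 hr, and their median difference was -0.20. Csf1r, the receptor for a macrophage growth factor, was at 0.15 (adjusted p = 0.613) and Cd68 at 0.00 (adjusted p = 0.994). The part of these cell markers in the C1q and Cfp values was not tested.

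Over the 12 libraries the C1q genes were most like each other. By Pearson correlation of log2 CPM with 8352 genes, C1qb and C1qc were at r = 0.986, C1qa and C1qc at 0.980, and C1qa and C1qb at 0.973. Next came Ctsl, a lysosomal protease, for C1qa (0.970) and Isyna1, an enzyme of inositol synthesis, for C1qc (0.968). The genes nearest to C3 were Gbgt1 (0.996), AI314180 (0.994) and Abcc1 (0.992). For Cfb they were Adhfe1 (0.988), Epsti1 (0.987) and Lman1 (0.986), for C3ar1 Rin2 (0.976), Tmem8 (0.973) and Itgb5 (0.972), and for C5ar1 Erc1 (0.971), Myo1g (0.970) and Dcakd (0.966). Cfp was nearest to the chemokine gene Ccl6 (0.932), Vill (0.912) and C1qa (0.901). These libraries share times, genotypes and a scaling, so the values are descriptions only.

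Of 52 other complement genes in lists of classical and lectin components, alternative and terminal components, regulators and receptors, 23 were in the table and 22 were tested. At 4 hr against 0 hr, 4 of them were higher, 7 lower and 11 not called, beside 29.1% of all genes higher and 26.7% lower. At 8 hr it was 4, 9 and 9, beside 24.5% and 21.6%. From 4 to 8 hr it was 2, 3 and 17, beside 12.8% in each direction. Their median log2 change was -0.10 at 4 hr and -0.18 at 8 hr. Between genotypes in the mean of the times limma called 0 of the 22, voom weights also 0, and 7 had an unadjusted p below 0.05, as had 6.71% of all genes. None of the 8 alternative and terminal components was listed.

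Of the 7 classical and lectin genes tested, 3 were higher and 1 lower at both times. C1ra, the protease bound to C1q, was at 156 and 109 reads in WT at 0 hr and 258 and 306 at 8 hr, and at 98 and 118 reads rising to 278 and 271 in S513A. It rose by 0.60 at 4 hr (SE 0.12, limma adjusted p = 0.00143) and by 1.5 at 8 hr (adjusted p = 1.82e-06) on the log2 scale, while the C1q genes fell. Ptx3, a soluble recognition protein that binds C1q, went in WT from 5 and 3 reads at 0 hr to 149 and 73 at 4 hr, then back to 11 and 20. In S513A its reads were 0 and 4, 100 and 77, and 14 and 14, which leaves the size of its rise uncertain at the 0 hr end (adjusted p = 9.6e-06 at 4 hr). Colec12, a collectin scavenger receptor, fell by 0.78 and 1.48 at 4 and 8 hr. C2, the classical pathway counterpart of factor B and its neighbour, was looked at after its values were seen. At 26 to 56 reads per library, it rose by 0.54 (limma adjusted p = 0.021) and 0.74 (adjusted p = 0.00485). Within neither genotype did C2 pass at 4 hr (limma adjusted p = 0.0588 in WT and 0.175 in S513A). At 8 hr it passed in WT (adjusted p = 0.0153) and not in S513A (adjusted p = 0.0843).

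Among 6 regulators tested, 1 was higher and 2 lower at 4 hr, and 1 was higher and 3 lower at 8 hr. Thbd (thrombomodulin), which promotes the inactivation of anaphylatoxins, fell by 3.23 at 4 hr and by 2.35 at 8 hr on the log2 scale (limma adjusted p = 6.53e-09 and 1.1e-07). Cd55, which dissociates convertases, fell by 1.31 at 8 hr (adjusted p = 0.0152) at 2 to 14 reads per library. Cr1l, the rodent membrane regulator Crry, rose by 0.36 at 4 hr (adjusted p = 0.0252).

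Of 9 receptors tested, none was higher, 4 were lower at 4 hr and 5 at 8 hr. C5ar2, the second C5a receptor, fell by 2.23 and 2.1 on the log2 scale, from 51 to 75 reads per library at 0 hr to 7 to 18 later. Cd93, a receptor once described as binding C1q, fell by 2.24 and 1.89 (limma adjusted p = 5.12e-07 and 2.58e-06). Lrp1, an uptake receptor, fell by 0.74 at 4 hr (limma adjusted p = 0.0184). Its WT libraries were at 11.56 and 11.57 log2 CPM at 0 hr and at 10.3 and 11.51 at 4 hr. Within neither genotype did Lrp1 pass at 4 hr (limma adjusted p = 0.132 in WT and 0.066 in S513A). At 8 hr its change was -1.24 in WT and -0.13 in S513A (interaction adjusted p = 0.231). Vsig4 fell by 0.90 at 8 hr. C5ar1 was thus the one of the C5a receptors that rose at 4 hr. Over these times the summed neutrophil markers went from 20.3 and 35.4 CPM in WT at 0 hr to 84.2 and 102.5 CPM at 8 hr, and from 51.1 and 54.3 to 33.6 and 86.9 CPM in S513A, and their part in these results was not tested.

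**Figure D5:**
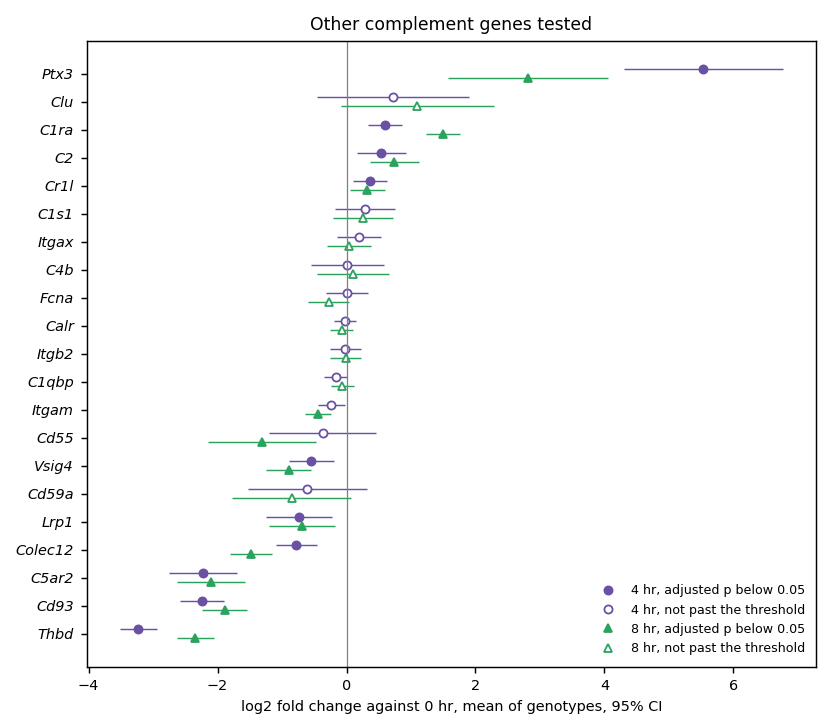
Log2 fold change against 0 hr, as the mean of both genotypes with 95% confidence intervals (horizontal axis), of 21 of the 22 other complement genes tested, at 4 hr (circles) and 8 hr (triangles). Filled symbols passed an adjusted p of 0.05, and Ptx3, C1ra, C2 and Cr1l are filled to the right of 0 while 6 genes at 4 hr and 8 at 8 hr are filled to the left.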

How the data were processed

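RNA-seq libraries of PECs were mapped by the authors on mm10 with HISAT2 (paired end, unstranded) and counted with featureCounts 1.6.3, as the study's methods and processing notes state. The authors deposited log2 CPM values, and the program that normalized them, the annotation and the gene filter are not given in the sources used here. Per deposited log2 value, 0.5 had been added to the reads before division by an effective library size, and on undoing this 100.0% of the values came within 0.01 of a whole read. Because reads were mapped without strand, antisense reads cannot be told apart.

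Groups were compared with limma 3.58.1 on these log2 values as deposited (R 4.3.3; a mean for each of 6 groups, 6 residual degrees of freedom, a prior that follows the mean level), two-sided, after a filter of at least 1 CPM in at least 2 libraries, with Benjamini-Hochberg adjustment over 11885 genes. The fit was also run on simulated reads with known changes and 1 spread for all genes and libraries. That run does not cover the uneven spread of these libraries. The SD over genes of the replicate difference was 0.16 in S513A at 0 hr and 0.40 in WT at 4 hr. Exon lengths and positions came from GENCODE (GRCm38), and promoters from RefSeq (GRCm38.p6), where 6 of the 9 genes were matched. No genomic position was converted between builds. Levels of all 9 members are described, and LPS changes in the mean of the genotypes are given for each tested member. Values within a genotype and for the genotype comparisons and interactions are given for only some members and times. Other complement genes were named when among the 3 largest called LPS changes of their list, and 3 genes were named per member by correlation, apart from 1 gene that is not reported here. The members and lists were chosen with earlier results of these data known. Alternatives were no filter, a filter at a mean of 5 CPM, 1 CPM added before the log2, median-ratio and quantile scaling, priors without a trend or robust, voom weights, a replicate block, also within genotype, only the libraries compared, and each library left out. Python 3.11.15, pandas 2.3.3 and matplotlib 3.10.9 were used.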

Additional observations from a re-analysis of the deposited data

Results flagged for a closer look

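C3 was the member whose S513A libraries lay on opposite sides of WT at different times: both were below both WT libraries at 4 hr (log2 difference -0.29) and both were above them at 8 hr (0.25). The change between these differences was not tested, and neither difference passed the threshold in limma (adjusted p = 0.622 and 0.481).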

How the results depend on the processing

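No member changed direction in a called value under the 11 alternative settings or the 12 fits without a library. Of 1984 alternative values for single members, 1930 kept their side of the threshold, 47 no longer passed it and 7 newly passed it. With only the libraries compared, the count called from 4 to 8 hr in S513A was 3, not 5. With the filter at a mean of 5 CPM, 8 and not 13 of the other complement genes were called at 8 hr against 0 hr. Fewer of them were tested under that filter, which does not account for the whole drop. In the main limma fit the called gene nearest to the threshold was Cr1l (adjusted p = 0.0477). Leaving out a library gave 4 to 7 members called at 4 hr against 0 hr in WT, 5 in S513A in each fit, 0 to 3 from 4 to 8 hr in WT and 3 to 5 in S513A. In these fits a group with 1 library is assumed to vary like the others. The count between genotypes was 0 throughout. With 2 libraries per group, the SE of a log2 difference between genotypes at 8 hr was 0.12 to 0.21 for the members.

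The replicate numbers were not taken to pair the samples, since not every correlation was over 0.1. The correlation over 8353 genes of the difference between replicates 1 and 2 in WT with that in S513A was -0.25 in unstimulated cells, -0.74 after 4 hr and 0.36 after 8 hr. Between times of 1 genotype it was -0.36 to 0.15 in WT and -0.12 to 0.76 in S513A, where 0.76 was for 4 with 8 hr. With a replicate block the members called were 7 at 4 hr and 7 at 8 hr in the mean of the genotypes, as without it, and 6 and not 7 at 4 hr in WT, where C1qa had an adjusted p of 0.0666. With a block within genotype, Cfp passed from 4 to 8 hr (adjusted p = 0.0215), which made 7 and not 6.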
